A study of Arabidopsis thaliana with 14 samples.

Results

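The chloroplast genome of Arabidopsis thaliana carries genes for photosynthesis and genes that express the genome itself, and the second kind is described here together with a few plastid genes of other function. The members were taken from the platform annotation, as every probe set given to 1 gene of the chloroplast genome whose lower-case symbol starts with rpo, rps, rpl or ycf or is matK, clpP, accD, ccsA or cemA. This gave 26 of the 22746 probe sets that are not controls: 4 genes of the plastid RNA polymerase, 8 of the small ribosomal subunit, 7 of the large subunit and 7 others. All 26 passed the filter on low values, as did 15646 probe sets in all. For 23 of them the signal on every array lay above 104, the highest of the arrays' 40th percentiles, and the exceptions were rpoB, rps14 and rps16. A further 7 probe sets with such a symbol were annotated to a pair of entries and were left out. Mitochondrial rps and rpl genes were left out as well.

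Plastids transcribe their genes with an enzyme of bacterial type, whose core subunits are encoded in the plastid by the rpo genes, and with phage-type polymerases imported from the cytosol. The phage-type enzymes are known to transcribe the rpoB operon and accD, while most photosynthesis genes depend on the bacterial type. Plastid mRNAs are translated on ribosomes of bacterial type, built partly from proteins encoded in the plastid (rps and rpl genes) and partly from imported ones, and most plastid genes lie in groups that are transcribed together and then cut and trimmed.

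Leaf RNA of plants aged 1 month was measured on 14 ATH1 arrays, 1 per sample. All plants were of the Col-0 background, and the 5 groups were wild type with water (3 arrays), wild type after 14 days of drought (3), the mutant camta5-a with water (3), camta5-a after drought (3) and the line OX-5, overexpressing the calmodulin-binding transcription activator CAMTA5, after drought (2). They are called Col-0, camta5 and OX5 here. A watered OX5 group was not analysed here, and neither the promoter of the transgene nor the nature of the mutation is given in the sources used here. The labels call the replicates biological but do not say that they were separate plants, and the p-values cover no more than the spread among these arrays, which may be technical. The genotype entry of camta5 water replicate 1 reads wild type, against its title, and the array was grouped by the title.

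Several arrays stood apart. The OX5 arrays correlated with the other 12 at a Spearman coefficient of 0.805 to 0.865, against 0.896 to 0.960 among those 12, and their control probe sets differed too, as given beside the OX5 results. The stress genes HIS1-3 and DI21, at 3338 to 7459 and 1591 to 18443 on the other drought arrays, read 311 to 378 and 102 to 149.5 on the OX5 arrays, within or below their watered ranges of 428 to 665 and 61.3 to 194. LEA4-5, a late-embryogenesis gene of water deficit, read 637 and 781 on them, above its watered range of 81.9 to 210.3 and near or below the low end of its range on the other drought arrays, 777 to 8558. On the 2441 probe sets called higher in Col-0 drought the OX5 medians were 0.73 and 0.71 above watered Col-0, and on the 1792 called lower outside the plastid lists they were -0.84 and -0.89. CAMTA5 read 115 to 179 in watered Col-0, 154 to 191 in watered camta5, 146 to 232 in Col-0 drought, 265 to 306 in camta5 drought and 290.4 to 402 in OX5, so it was not lower on the camta5 arrays. RCA, the Rubisco activase of leaf cells, read 28324 to 41941 on all 14 arrays, and the root-hair expansin EXPA7 read 43.8 or less. PYK10, a beta-glucosidase of roots, read 2.80 to 35.7 on the watered arrays, 61.1 to 115 in Col-0 and camta5 drought and 9.18 and 116 on the OX5 arrays, and its part in the drought results was not tested. No other marker of leaf, root, flower, seed or senescing leaf on the list used had a named probe set. Camta5 drought replicate 1 carried plastid signals at the watered level. Since the groups share 1 estimate of the spread, it also bears on comparisons it is not part of, and calls that it decides are given with and without it. The array was singled out by plastid signals, those of these genes among them, so p-values without it are descriptions.

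Differences are on the log2(signal + 16) scale with their standard error (SE), and a member is called where the adjusted p of limma, corrected over all 15646 probe sets, is under 0.05. A lower plastid signal in a bulk leaf sample can mean fewer plastids or cells, or less RNA in each, and these cannot be told apart. Most plastid mRNAs lack a stable poly(A) tail, and how the label was primed is not stated beyond the Affymetrix standard protocol, so signals are compared only between arrays for 1 probe set, never between genes.

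In Col-0, 11 of the 26 genes were called lower after drought and none higher. The background was 11.7% of all probe sets called lower and 15.6% called higher, so the share of these genes called lower, 42.3%, was above it. The median difference of the 26 was -0.68, against 0.08 over all probe sets tested. Without camta5 drought replicate 1 the lower calls numbered 13, against a background of 12.3%, with rps19 and ccsA added. With all arrays the calls were spread over every class, with 2 of 4 polymerase genes, 2 of 8 small-subunit genes, 2 of 7 large-subunit genes and 5 of 7 others. All 3 drought arrays lay below all 3 watered arrays for 15 of the 26, against 19% of all probe sets. Of the 43 plastid photosynthesis genes, 28 were called lower, with a median of -1.03, and of 20 mitochondrial probe sets 4 were, with a median of -0.42.

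**Figure D1:**
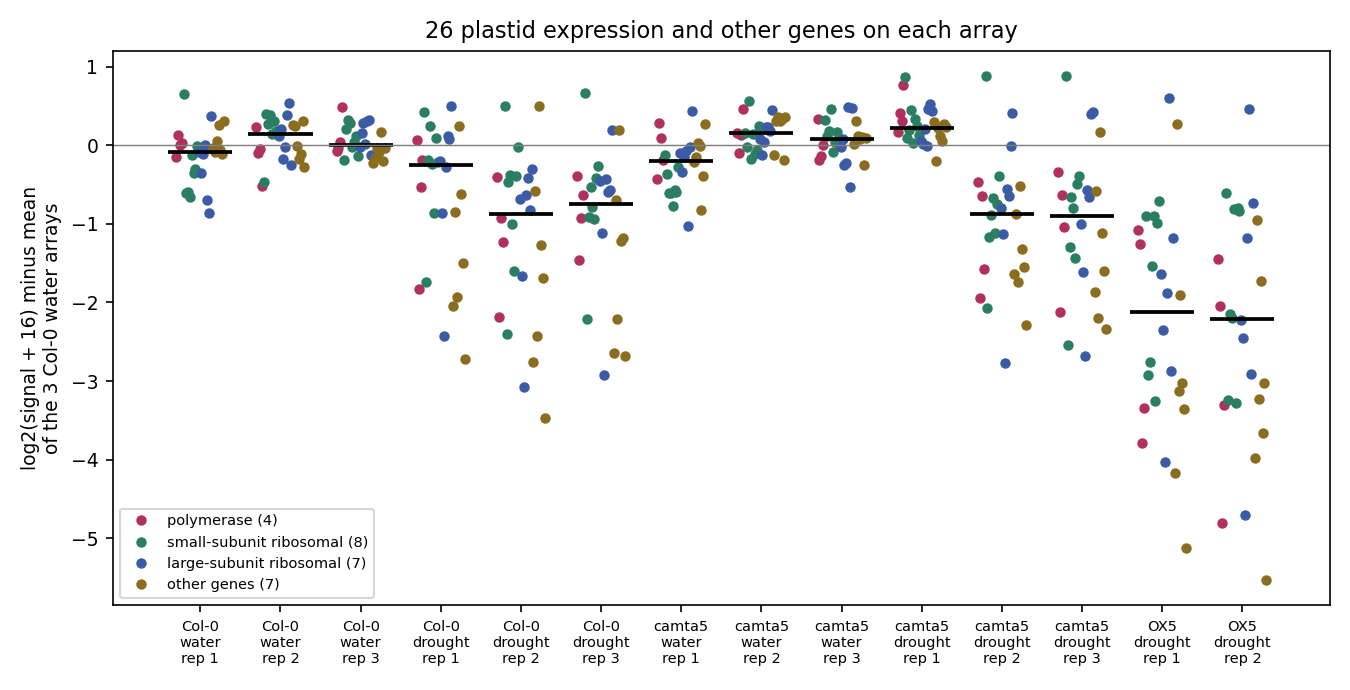
Each point is 1 of the 26 genes on 1 of the 14 arrays, as log2(signal + 16) minus the mean of the 3 watered Col-0 arrays (vertical axis), coloured by class, and the bars are medians over the 26. The medians were -0.25, -0.88 and -0.74 on the Col-0 drought arrays, 0.23, -0.88 and -0.90 on the camta5 drought arrays and -2.13 and -2.21 on the OX5 arrays.

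All 4 polymerase genes had a Col-0 difference below 0, of which 2 were called. The gene rpoB, for the beta subunit, read 378, 321 and 337 in watered Col-0 and 85.9, 63.6 and 115 in drought. Every drought array was far below every watered one, and rpoB fell by 1.82 ± 0.49 (SE, n = 3 per group, limma adjusted p = 0.0131). It is a dim probe set, with drought values near the filter level, and the call was lost without Col-0 drought replicate 2 (adjusted p = 0.0562).

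The neighbouring gene rpoC1, for the beta-prime subunit, read 9368, 9069 and 9609.9 with water and 6445, 4902 and 4897 in drought. Its groups did not overlap either, and it fell by 0.80 ± 0.26 (limma adjusted p = 0.0350). That call is marginal: it was lost with quantile normalization (adjusted p = 0.105), with moderation without a trend (0.0594) and without any 1 of 5 of the 6 Col-0 arrays.

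The rpoC2 gene, for the beta-double-prime subunit, read 2677, 1828 and 3691 with water and 2304, 1112 and 1683 in drought. Its groups overlapped, since drought replicate 1 lay above watered replicate 2, and the difference of -0.68 ± 0.46 was not called (limma adjusted p = 0.287). The alpha subunit gene rpoA, which lies in the ribosomal protein cluster, read 13954, 18202 and 14746 with water and 16329, 11764 and 11833 in drought. The groups overlapped here too, and the difference of -0.24 ± 0.22 (limma adjusted p = 0.456) became 0.07 with quantile normalization.

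**Figure D2:**
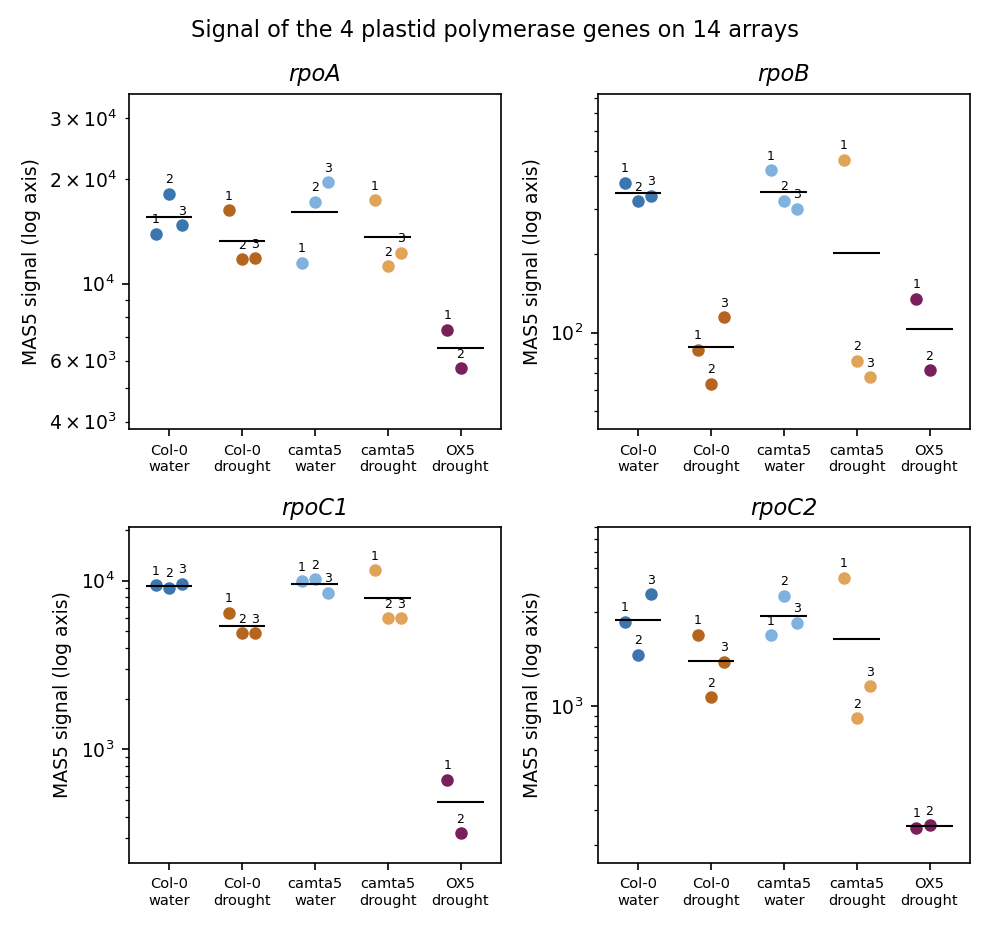
MAS5 signal (vertical, log axis) of the 4 plastid polymerase genes by group (horizontal), where points are single arrays with their replicate number and bars are group means. For rpoC1 the OX5 arrays, at 663 and 319.7, lie below all 12 others, while for rpoB, at 135 and 71.6, they lie within and just above the Col-0 drought range.

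Among the ribosomal protein genes, drought separated a few from the rest. For the large-subunit gene rpl20, Col-0 read 6294, 6014 and 8224 with water and 1243, 789 and 878 in drought. The drought arrays were all far below the watered ones, and rpl20 fell by 2.81 ± 0.55, or 7.02-fold (limma adjusted p = 0.00222). The small-subunit gene rps15 fell by 2.12 ± 0.49 (limma adjusted p = 0.00567), from 1539 to 3098 with water to 430.4 to 694 in drought. Smaller falls were called for rpl16 (-1.22 ± 0.32, limma adjusted p = 0.0119) and rps2 (-1.14 ± 0.36, 0.0283), and both calls were lost without Col-0 drought replicate 2 or without Col-0 water replicate 2. The rps2 call was lost without Col-0 water replicate 3 as well.

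The other 11 ribosomal genes were not called. Their differences in Col-0 ran from -0.67 ± 0.26 for rps19 (limma adjusted p = 0.0649, or 0.0380 without camta5 drought replicate 1) to 0.53 ± 0.25 for rps14 (0.129). The genes rps3, rps4, rps18 and rpl36, with -0.24, -0.17, -0.22 and 0.13, were the ribosomal genes nearest to 0. For rps14 the drought arrays read 264, 278 and 314 and the watered arrays 312, 135 and 167. One watered array was as high as the drought arrays and the others were below them.

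Of the 7 genes outside the polymerase and the ribosome 5 fell, and the largest fall of the 26 was among them. The ycf4 gene, whose product helps to assemble photosystem I, read 13534, 9052 and 10724 with water and 1643, 978 and 1693 in drought. Its drought arrays lay far below the watered ones, and ycf4 fell by 2.96 ± 0.49, or 7.77-fold (limma adjusted p = 0.000775). For accD, the plastid-encoded subunit of the acetyl-CoA carboxylase of fatty acid synthesis, the watered arrays read 8163, 10052 and 7181 and the drought arrays 2014, 1228 and 1330.4. The groups did not overlap, and accD fell by 2.48 ± 0.40 (limma adjusted p = 0.000655).

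The cemA gene, for a protein of the chloroplast envelope membrane, read 16256, 15526 and 15303 with water and 4092, 2893 and 3372 in drought. Its watered arrays lay close together and well above the drought arrays, and cemA fell by 2.19 ± 0.41 (limma adjusted p = 0.00174). A second photosystem I assembly gene, ycf3, fell by 1.46 ± 0.36 (limma adjusted p = 0.00883). The intron maturase gene matK fell by 1.04 ± 0.34 (limma adjusted p = 0.0360), a call lost in 4 settings and without any 1 of 5 of the 6 Col-0 arrays. The cytochrome c assembly gene ccsA (-0.71 ± 0.26, limma adjusted p = 0.0568, or 0.0478 without camta5 drought replicate 1) and clpP, for the proteolytic subunit of the Clp protease (0.31 ± 0.19, 0.234) were not called with all arrays. The calls of rps15, rpl20, accD, cemA, ycf3 and ycf4 held in every setting and without any 1 array.

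**Figure D3:**
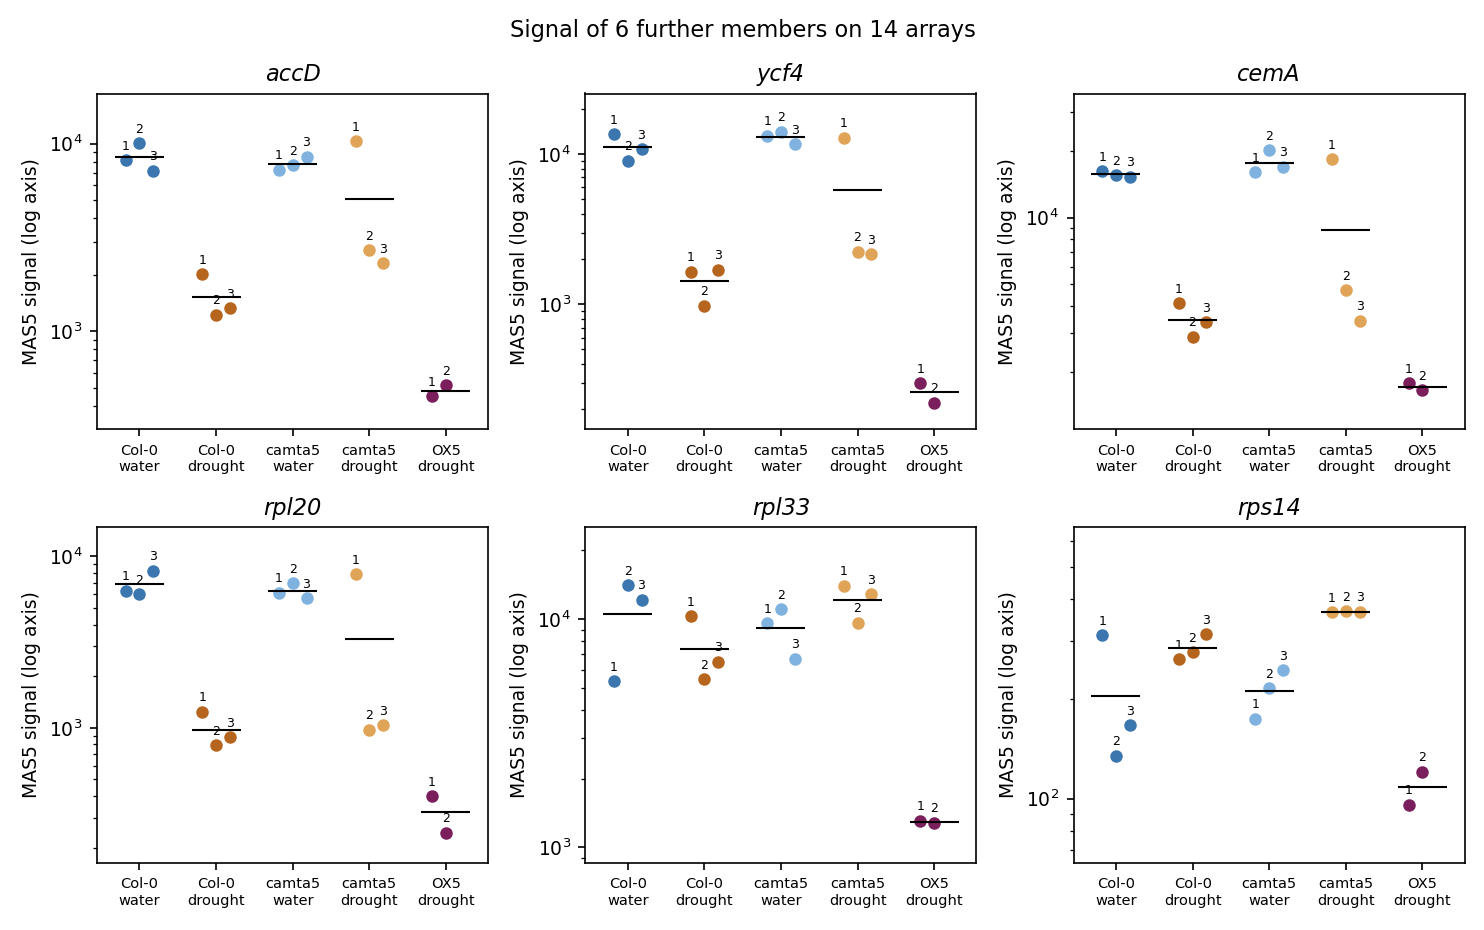
MAS5 signal (vertical, log axis) of accD, ycf4, cemA, rpl20, rpl33 and rps14 by group (horizontal), where points are single arrays with their replicate number and bars are group means. In the first 4, camta5 drought replicate 1 lies with the watered arrays and the other camta5 drought arrays lie near Col-0 drought. For accD and ycf4 those other arrays lie above every Col-0 drought array. The rpl33 signal is low on the OX5 arrays only.

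In camta5, the drought response of these genes turned on 1 array. With all 3 drought arrays, 2 genes were called lower and 1 higher, where the background was 7.61% lower and 8.67% higher, and the median of the 26 was -0.55 against 0.04 over all probe sets. Without drought replicate 1, 14 were called lower and none higher, against a background of 9.02% lower and 9.64% higher, and the median was -0.89. For the photosynthesis genes the count of lower calls went from 14 to 29 of 43.

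Camta5 drought replicate 1 lay apart from the other drought arrays in these genes and nearer to them on the probe sets called in Col-0 drought outside the plastid lists. The photosynthesis genes were displaced as well, with a median of 0.08 relative to watered Col-0, beside -0.86 and -0.90 for replicates 2 and 3. The mitochondrial median was 0.40, beside -0.08 and 0.15. For 13 of the 26, the other 5 Col-0 and camta5 drought arrays lay below all 6 watered arrays, beside 10.2% of all probe sets, and in 12 of these 13 replicate 1 lay at or above the lowest watered array. The latter held for 376 of the 1591 probe sets with that pattern, or 23.6%. On the probe sets called higher in Col-0 drought, the median of replicate 1 was 0.57 above watered Col-0, beside 0.83 and 0.68 for replicates 2 and 3. On those called lower outside the plastid lists it was -0.61, beside -0.97 and -0.88. Both medians were the smallest in size among the Col-0 and camta5 drought arrays. Its HIS1-3 signal was 4366, beside 7459 and 3338 for replicates 2 and 3, and its DI21 signal 1648, beside 3416 and 1653. Its LEA4-5 signal was 777, beside 5501 and 3400, and was the lowest of the Col-0 and camta5 drought arrays. Its 25S rRNA control, at 16184, was the highest of the 14. The part of these differences in the camta5 results was not tested.

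The called genes were ycf4, cemA and rps14. In camta5, ycf4 read 13237, 14053 and 11649 with water and 12828, 2239 and 2158 in drought. Only drought replicates 2 and 3 were below the watered arrays, and ycf4 fell by 1.70 ± 0.49 (limma adjusted p = 0.0291), and without replicate 1 fell by 2.55 ± 0.24 (3.02e-05). For cemA the values were 16017, 20219 and 16981 with water and 18314, 4693 and 3419 in drought. The same array lay among the watered ones, and cemA fell by 1.41 ± 0.41 (limma adjusted p = 0.0323), and without it fell by 2.14 ± 0.18 (1.64e-05).

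The ycf4 call was lost in 4 of the alternatives and that of cemA in 5, with limma adjusted p of 0.0775 and 0.0950 when only the arrays of the compared groups were fitted. Both were also lost without any 1 of the 3 watered camta5 arrays and without drought replicate 2 or 3.

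For rps14, camta5 read 174, 215 and 245 with water and 366, 368 and 368 in drought. Here all 3 drought arrays agreed closely and lay above the watered ones, a rise of 0.76 ± 0.25 (limma adjusted p = 0.0488). The call was lost in 7 of the alternatives, among them an offset of 1 (adjusted p = 0.0577), no filter (0.0794) and the replicate number as a block (0.0673), and also without drought replicate 1 (0.0781), where the value was 0.77. The signals are low.

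The polymerase genes were not called in camta5 with all arrays. The rpoB signal was 422, 322 and 300.1 with water and 463, 77.8 and 67.2 in drought. Replicate 1 was the highest of the 6, and the others were near the Col-0 drought arrays. The difference was -1.22 ± 0.49 (limma adjusted p = 0.105), and without replicate 1 rpoB fell by 2.03 ± 0.28 (0.000548).

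For rpoC2, camta5 read 2294, 3620.4 and 2641 with water and 4468, 871 and 1265 in drought, with replicate 1 again at the top. The difference was -0.71 ± 0.46 (limma adjusted p = 0.309), and without replicate 1 it fell by 1.40 ± 0.32 (0.00919). The rpoC1 signal was 9945, 10197 and 8487 with water and 11552, 5971 and 5998 in drought, and its difference was not called with (-0.35 ± 0.26, limma adjusted p = 0.391) or without (-0.67 ± 0.23, 0.0608) that array.

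For rpoA the camta5 values were 11499, 17242 and 19675 with water and 17441, 11254 and 12288 in drought, and the groups overlapped. Its differences were -0.23 ± 0.22 (limma adjusted p = 0.519) and, without replicate 1, -0.42 ± 0.23 (0.220).

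The genes accD and rpl20 showed the same pattern of arrays. For accD, camta5 read 7251, 7682 and 8493 with water and 10261, 2693 and 2297 in drought, and replicate 1 exceeded every watered camta5 array. Its difference was -0.96 ± 0.40 (limma adjusted p = 0.115), and without replicate 1 accD fell by 1.64 ± 0.21 (0.000329). For rpl20 the values were 6116, 6985 and 5689 with water and 7839.9, 976 and 1039 in drought, with the same order. Its difference was -1.63 ± 0.55 (limma adjusted p = 0.0557), and without replicate 1 it fell by 2.61 ± 0.23 (2.52e-05).

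Genes called lower in both drought responses numbered 2, cemA and ycf4, which is 2 of the 11 called lower in Col-0 and both of those called lower in camta5. Without camta5 drought replicate 1 they numbered 11. The share of all probe sets called lower in both responses was not counted, so these numbers are descriptions. Over the 26 genes the Col-0 and camta5 responses, which share no array, correlated with Pearson's r = 0.89 and Spearman's rho = 0.89 (0.91 and 0.91 without that array), beside r = 0.80 over all probe sets. The 26 points share the same 12 arrays, so the coefficient is a description.

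Between camta5 and Col-0 at the same condition, none of the 26 was called. With water, camta5 and Col-0 differed by a median of -0.02, and limma called none of any probe sets (0%). Among the 26, 1 had an unadjusted p under 0.05, as did 1000 of all probe sets tested. The 3 with the smallest p were rpl36 (0.45 ± 0.20, limma adjusted p = 0.776), rps19 (-0.24 ± 0.26, 0.958) and ycf3 (-0.28 ± 0.36, 0.966). The interval of the rpl36 difference ran from 0.02 to 0.88. For rpoB, at -0.00, it ran from -1.05 to 1.04, so a difference of that size in either direction lies within the interval.

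In drought, camta5 and Col-0 differed by a median of 0.27 over the 26, and by -0.15 without camta5 drought replicate 1. None was called by limma, against a background of 1.46%. Among the 26, 4 had an unadjusted p under 0.05, as did 2345 of the 15646 probe sets tested. The differences with the smallest p were accD at 1.41 ± 0.40 (limma adjusted p = 0.0985), ycf4 at 1.49 ± 0.49 (0.156) and rpl33 at 0.74 ± 0.32 (0.288). Without that array they were 0.74 ± 0.21 (0.109) for accD, 0.65 ± 0.24 (0.212) for ycf4 and 0.63 ± 0.36 (0.457) for rpl33, so accD and ycf4 rest on it for much of their size. For accD, ycf4 and rps14 all 3 camta5 drought arrays lay above all 3 Col-0 drought arrays, which is 3 of the 26, beside 7.77% of all probe sets.

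The difference of the drought responses, camta5 minus Col-0, was tested directly and called for no probe set by limma (0%). Its median over the 26 was 0.31, and -0.09 without camta5 drought replicate 1. One of the 26 had an unadjusted p under 0.05, as did 885 of all. The smallest p were those of accD (1.52 ± 0.56, limma adjusted p = 0.866), clpP (-0.51 ± 0.26, 0.899) and rpl33 (0.87 ± 0.45, 0.899). Without that array these were 0.84 ± 0.28 (0.696), -0.61 ± 0.27 (0.837) and 0.76 ± 0.48 (0.904).

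On the OX5 arrays these genes were lower still. Against Col-0 in drought, 18 of 26 were called lower and none higher, where 25% of all probe sets were called lower and 21.7% higher. The median was -1.38 against -0.04 over all probe sets. Without camta5 drought replicate 1, which is not in this comparison but adds to the shared spread, 22 were called lower, against a background of 25.2%, and the additions were rps3, rps15, rpl20 and cemA. With all arrays the lower calls were 3 of 4 polymerase genes, 5 of 8 small-subunit genes, 5 of 7 large-subunit genes and 5 of 7 others. Both OX5 arrays lay below all 3 Col-0 drought arrays in 22 of the 26, beside 31.9% of all probe sets, and below all 12 other arrays in 22, beside 19.1%. The exceptions to the latter were rpoB, rps19, rpl32 and ccsA. OX5 had the lowest mean of the 5 groups for 23 of the 26, a count whose share over all probe sets was not taken.

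Several control measures moved with this result. The 3-prime to 5-prime signal ratio of actin was 3.19 to 3.62 on the OX5 arrays and 6.22 to 14.6 on the other 12. That of the spiked dap transcript was 2.99 to 4.04 against 7.34 to 12.2, the bioB-M hybridisation control read 697 to 906 against 38.6 to 108, and the 25S rRNA control read 4383 to 5961 against 8274 to 16184. Line, labelling and hybridisation cannot be told apart in these 2 arrays. Of the 43 photosynthesis genes 16 were called lower and 2 higher, with a median of -0.61, and of the 20 mitochondrial probe sets 10 were called lower, 2 higher, with a median of -1.08. The difference between these lists was not tested.

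The largest difference was that of rpoC1, which read 663 and 319.7 on the OX5 arrays. Both were far below the Col-0 drought arrays given above, and rpoC1 fell by 3.50 ± 0.29, or 11.3-fold (n = 2 against 3, limma adjusted p = 3.89e-07). The rpoC2 gene read 244 and 252, below every other array, and fell by 2.64 ± 0.51 (limma adjusted p = 0.000696). The rpoA gene read 7363 and 5701, also below every other array, and fell by 1.02 ± 0.25 (limma adjusted p = 0.00375). Their neighbour rpoB read 135 and 71.6, inside and above the Col-0 drought range, and its difference of 0.17 ± 0.55 was not called (limma adjusted p = 0.818) and was -0.19 with quantile normalization.

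Of the small-subunit genes, rps2 fell by 2.13 ± 0.40 (limma adjusted p = 0.000534), rps16 by 1.93 ± 0.45 (0.00257) and rps18 by 1.64 ± 0.42 (0.00512). The rps14 gene read 96.0 and 121, below every other array. It fell by 1.28 ± 0.28 (limma adjusted p = 0.00166), while its drought differences were above 0 in both lines. The smallest called fall was that of rps4 at 0.61 ± 0.19 (limma adjusted p = 0.0171), and it was lost without OX5 replicate 2, as was that of rps18. The differences of rps3 (-0.65 ± 0.28), rps15 (-0.96 ± 0.55) and rps19 (-0.19 ± 0.29) were not called. Without camta5 drought replicate 1, rps3 (limma adjusted p = 0.0313) and rps15 (0.0140) were.

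Of the large-subunit genes, rpl33 stood out. It read 5361, 14076 and 12157 in watered Col-0, 10298, 5470.3 and 6517 in Col-0 drought, 9587, 11029 and 6704 in watered camta5 and 14006, 9632 and 12835 in camta5 drought. These 12 arrays overlapped across the 4 groups. OX5 read 1308 and 1284, below all of them, and rpl33 fell by 2.45 ± 0.36 against Col-0 drought (limma adjusted p = 6.60e-05).

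Falls were also called for rpl14 (-1.48 ± 0.26), rpl16 (-1.18 ± 0.36), rpl36 (-1.09 ± 0.22) and rpl22 (-1.08 ± 0.22), with limma adjusted p between 0.000321 and 0.0142, and that of rpl16 was lost without either OX5 array. The rpl20 gene read 399 and 245, below every other array, but its difference of -1.55 ± 0.62 was not called with all arrays (limma adjusted p = 0.0504) and was called without camta5 drought replicate 1, with an SE of 0.23 (9.36e-05). The rpl32 gene ran the other way. OX5 read 7981 and 7226, above all 3 Col-0 drought arrays (3485 to 5701), with a difference of 0.83 ± 0.44 that was not called (limma adjusted p = 0.137).

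Among the other genes, ycf4 read 299 and 221 on the OX5 arrays and fell by 2.37 ± 0.55 beyond its level in Col-0 drought (limma adjusted p = 0.00252). The accD gene read 451 and 515 and fell by 1.59 ± 0.45 (limma adjusted p = 0.00899), a call lost without OX5 replicate 1. Both genes were below every other array. The cemA gene read 1783 and 1658, below every other array as well, but its difference of -0.98 ± 0.46 was not called with all arrays (limma adjusted p = 0.0934) and was called without camta5 drought replicate 1 (0.000491).

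The clpP gene, uncalled in both drought responses, fell by 2.13 ± 0.21 (limma adjusted p = 1.63e-06), and matK fell by 2.30 ± 0.38 (0.000219). The ycf3 gene fell by 1.74 ± 0.41 (limma adjusted p = 0.00275). For ccsA the OX5 arrays read 26036 and 11162, one near the top of the watered arrays and the other below every other array, and the difference of 0.36 ± 0.29 was not called (limma adjusted p = 0.327).

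**Figure D4:**
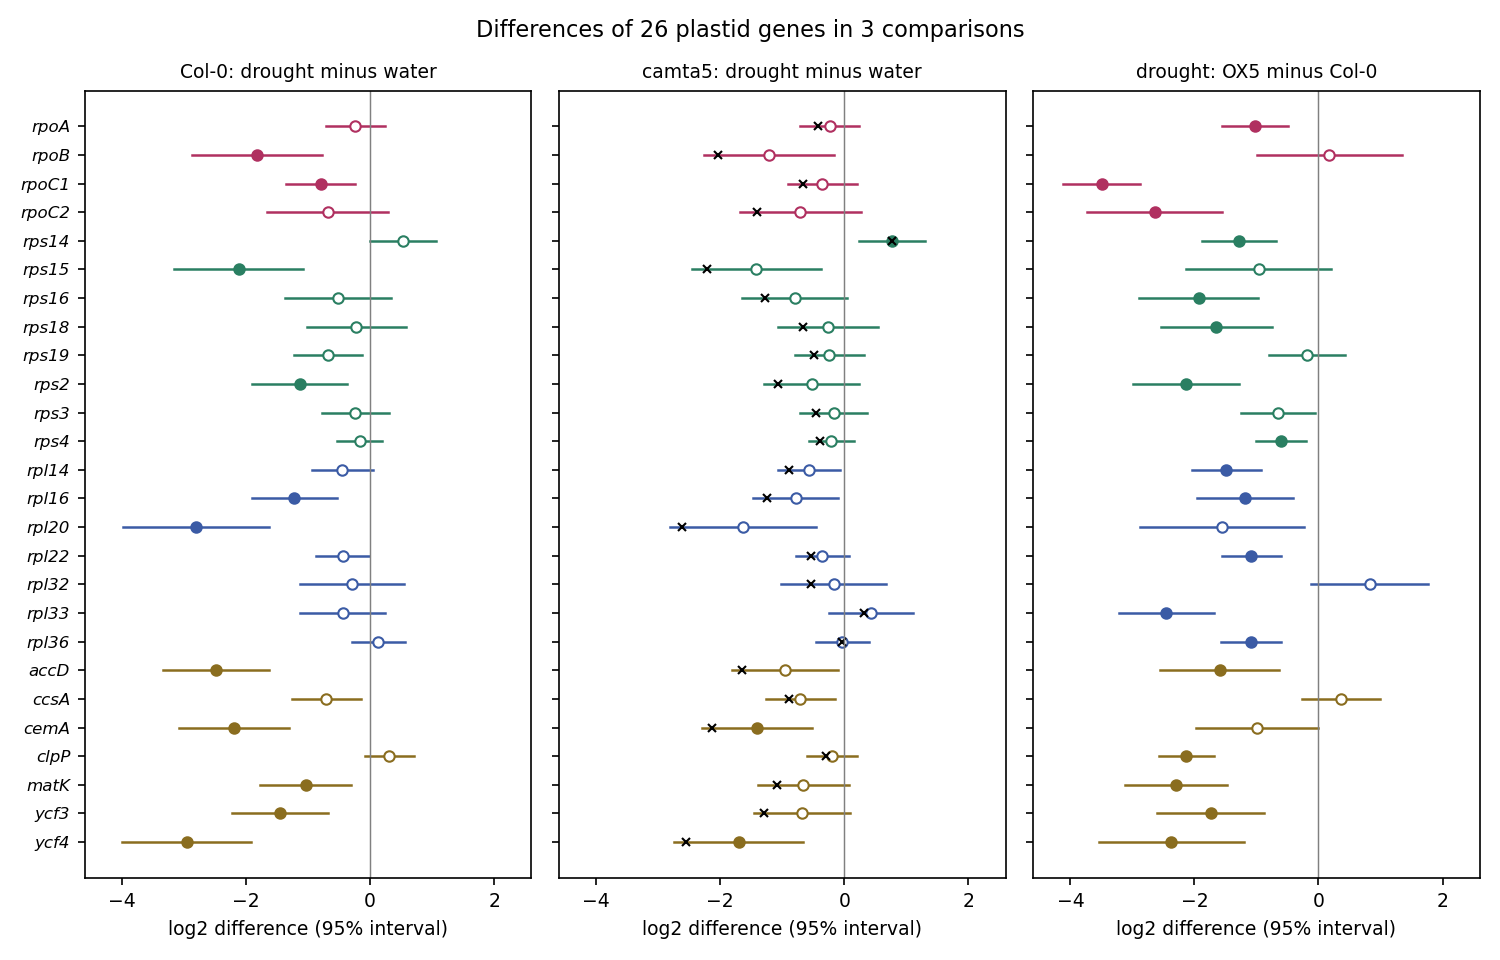
Log2 differences (horizontal) with 95% intervals for the 26 genes (vertical) in 3 comparisons, where filled points were called by limma and crosses in the middle panel give the values without camta5 drought replicate 1. The largest OX5 difference was that of rpoC1 at -3.50, and the largest Col-0 drought difference that of ycf4 at -2.96.

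Of the 18 genes called lower in OX5 against Col-0, 7 were also called lower in Col-0 drought and 10 were called in neither drought response. These comparisons share the Col-0 drought arrays, and the same overlaps were not counted over all probe sets. The counts are therefore given side by side only. Against camta5 in drought, 21 of the 26 were called lower and none higher, beside 22.5% of all probe sets called lower and 20.2% higher, with a median of -1.60. Without camta5 drought replicate 1 the counts were 19 lower and 1 higher, with a background of 20.3% lower and 18.4% higher and a median of -1.22. The gene called higher was rpl32 (1.18 ± 0.43, limma adjusted p = 0.0430).

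The falls of rpoC1 (-3.97 ± 0.29, limma adjusted p = 1.43e-07), ycf4 (-3.86 ± 0.55, 6.43e-05), rpl33 (-3.20 ± 0.36, 7.55e-06) and accD (-3.01 ± 0.45, 9.92e-05) against camta5 were the 4 largest. Without camta5 drought replicate 1 they were -3.65, -3.02, -3.09 and -2.33. The call of rps15 (-1.58 ± 0.55, limma adjusted p = 0.0305) ended without that array (-0.78 ± 0.32, 0.0666), as did that of rps4. All 18 genes called lower against Col-0 were called lower against camta5 too. Both comparisons use the same OX5 arrays and the same estimate of the spread, and the overlap over all probe sets was not counted. This overlap is therefore a description only. Over the 7 comparisons rps3, rps19, rpl32 and ccsA, 4 of the 26, were never called with all arrays, and each was called at least once without camta5 drought replicate 1. The share of all probe sets never called was not counted.

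Members that lie next to each other were then set side by side, in the order of the 69 single-gene plastid probe sets along the RefSeq TAIR10.1 annotation. In Col-0 drought the consecutive genes accD, psaI, ycf4, cemA and petA were all called lower. The differences of accD, ycf4, cemA and petA were -2.48, -2.96, -2.19 and -1.34, and that of psaI was the smallest of the 5 in size. The run rpl33, rps18, rpl20 and clpP did not move together, at -0.44, -0.22, -2.81 and 0.31, and only rpl20 was called. The consecutive genes rps2, rpoC2, rpoC1 and rpoB gave -1.14, -0.68, -0.80 and -1.82. Across the cluster from rpoA to rps19 the differences ran from -1.22 to 0.13, and rpl16 was the 1 call.

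In OX5 against Col-0 drought the run rps2, rpoC2, rpoC1 and rpoB gave -2.13, -2.64, -3.50 and 0.17, so rpoB and its neighbour rpoC1 lay at opposite ends. The dim rpoB probe set already read 63.6 to 115 in Col-0 drought, near the filter level, and the part of this in its OX5 difference was not tested. The run rpl33, rps18, rpl20 and clpP gave -2.45, -1.64, -1.55 and -2.13, all called with all arrays but rpl20. The consecutive genes rpl32 and ccsA, at 0.83 and 0.36, were 2 of the 3 members above 0, and neither was called. The gene after them in this order, ndhD of the NADH dehydrogenase-like complex, fell by 3.14 ± 0.23 (limma adjusted p = 9.96e-08).

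**Figure D5:**
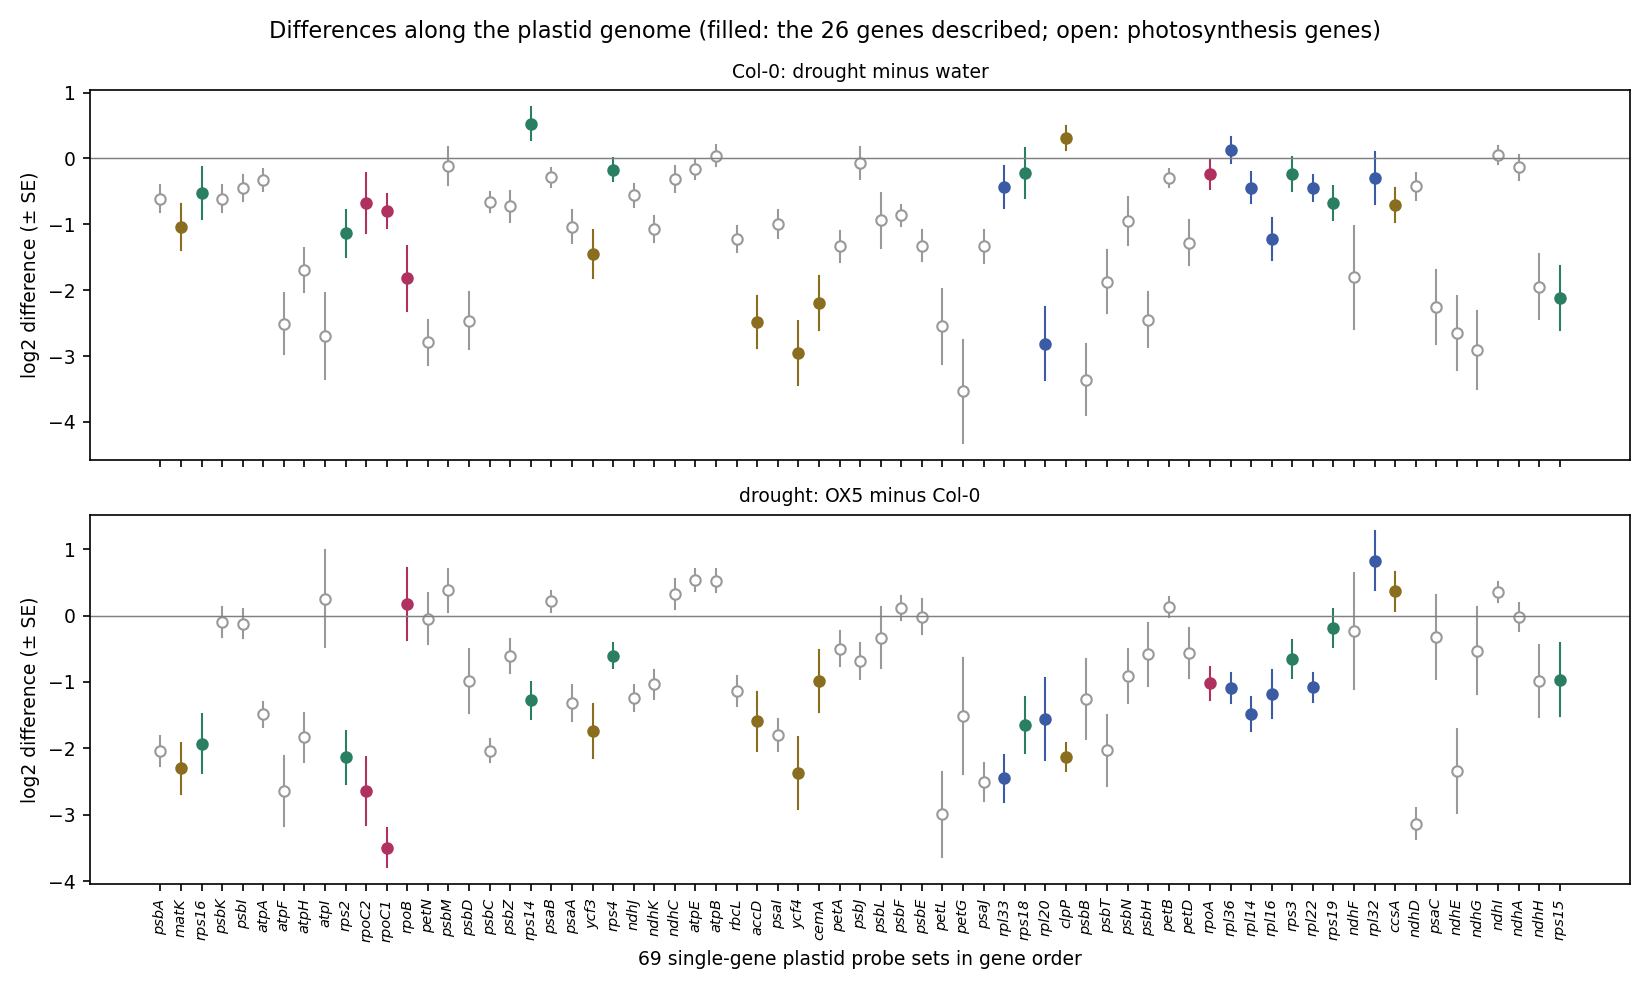
Log2 differences (vertical, with SE) of the 69 single-gene plastid probe sets in their order along the plastid genome (horizontal, not to scale), for drought in Col-0 (top) and OX5 against Col-0 in drought (bottom), with the 26 genes filled in class colours and photosynthesis genes open. From accD to petA all values of the top panel lie well below 0, down to -2.96 for ycf4, and in the bottom panel rpoC1 at -3.50 stands beside rpoB at 0.17. The rpoB probe set is dim, with Col-0 drought values near the filter level.

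Nuclear genes that work with these products were covered thinly. Of 99 entries on 7 lists, 19 had a probe set of their own and 4 of these were named in the reference. CAF1, a splicing factor for plastid group II introns, read 86.1 and 298 on the OX5 arrays and 361 to 554 on the other 12, and fell by 1.55 ± 0.32 against Col-0 drought (limma adjusted p = 0.00123). CFM3A, a second splicing factor, read 167 and 224 against 324 to 579 and fell by 1.09 ± 0.24 (limma adjusted p = 0.00159). CLPP4, a nuclear-encoded Clp subunit, fell in Col-0 drought by 0.70 ± 0.19 (limma adjusted p = 0.0122) and had a difference of 0.51 ± 0.21 in OX5 against Col-0 drought that was not called (0.0559). CcdA, of thylakoid cytochrome assembly, fell by 0.61 ± 0.16 in OX5 against Col-0 drought (limma adjusted p = 0.00675).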

How the data were processed

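The authors deposited linear MAS5 intensities of 14 ATH1 arrays, for which the submitters' processing notes name Affymetrix Expression Console. Versions are not given in the sources used here. Each array had a mean near 500 after 2% trimming at each end. Signals were taken as log2(signal + 16), which understates the change of dim probe sets. A probe set was kept where 2 or more arrays put it above their own 40th percentile (15646 kept, 7100 below, 64 controls removed). The model was fitted to all 14 arrays in limma 3.58.1 under R 4.3.3, with a mean for each group, a trend and no covariates. Tests were two-sided, with Benjamini-Hochberg adjustment within each of 7 comparisons. The procedure was tested on simulated data with 200 of the 15646 probe sets changed. Changes of 1 log2 unit were called in 51% for Col-0 drought and 32% for OX5 against Col-0. Changes of 2 log2 units were called in 83% and 77%. Unchanged probe sets made up 8.2% and 5.2% of the calls. A member that is not called may therefore still differ. The number of arrays limits the precision.

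Per-array values are given for the polymerase genes and for called members among the 4 largest rises or falls of a comparison, and the 3 smallest p where none was called. The members and lists were chosen with earlier results of these data known. Same-numbered arrays deviated with r from -0.16 to 0.24, so the numbers were not taken as pairs. At most 2 values were identical between any arrays compared. Alternatives were other offsets, filters, scalings, moderation, array weights, thresholds and groupings, and each array left out. Names came from the platform annotation and RefSeq TAIR10.1. No coordinates or sequences are printed.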

Additional observations from a re-analysis of the deposited data

How the results depend on the processing

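Directions of called members did not reverse under any alternative run. The count of 11 called in Col-0 drought became 6 at an adjusted p under 0.01, and 6 to 13 without 1 array (6 when Col-0 drought replicate 2 is left out). The 3 calls in camta5 drought became 1 with quantile normalization, 0 without a trend, 1 with robust moderation, 10 with array weights, 0 at an adjusted p under 0.01, 0 with camta5 water replicate 1 counted as Col-0, and 7 of 33 with the probe sets of a pair of entries, an alternative chosen after seeing the data. Without 1 array it was 0 to 14, with 0 without any 1 camta5 water array or without drought replicate 2 or 3, and 14 without drought replicate 1. The causes were not tested, beyond the fewer arrays of the latter. The counts for OX5 were 16 to 22 against Col-0 and 18 to 21 against camta5, and 0 remained 0 in the other comparisons. The median of the 26 for camta5 against Col-0 in drought ran from -0.15 to 0.44, and that of the difference of responses from -0.09 to 0.49. Other medians ran from -0.80 to -0.53 (Col-0 drought), -0.89 to -0.30 (camta5 drought), -0.11 to 0.09 (camta5 against Col-0 with water), -1.51 to -1.31 (OX5 against Col-0) and -1.81 to -1.22 (OX5 against camta5). With the replicate number as a block the counts were 11, 3, 0, 0, 19, 21 and 0, in the order Col-0 drought, camta5 drought, lines with water, lines in drought, OX5 against Col-0, OX5 against camta5 and the difference of responses, and the 3 in camta5 were then all lower. Calls that held under all settings and without any 1 array numbered 6 of 11 in Col-0 drought, 0 of 3 in camta5 drought, 14 of 18 in OX5 against Col-0 and 17 of 21 in OX5 against camta5. Centring on the median moved the median of all probe sets for OX5 against Col-0 from -0.04 to -0.17. Few arrays, a group of 2 and the dim probe sets rpoB, rps14 and rps16 limit the precision.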
